A study of Mus musculus with 20 samples.

Results

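The genes described here copy DNA in S phase or supply its nucleotides, and they were followed through 20 RNA-seq libraries of AML-12 cells. They are a fixed list of 56 genes, of which 52 were found by gene name in at least 1 of the 4 tables of changed genes, out of 6261 genes listed in any table. Orc6, Gins3, Pold3 and Pole2 were listed in none, so no counts of these 4 genes were used. AML-12 is an immortalised hepatocyte line derived from a mouse transgenic for transforming growth factor alpha. There were 4 groups of 5 libraries: Ripk3-/- cells kept for 24 h with 125 µM palmitate on albumin carrier (BSA), untreated Ripk3-/- cells, WT cells with the same palmitate, and untreated WT cells. RIPK3 is a kinase of necroptosis, and palmitate is a saturated fatty acid used to load cells with lipid. The labels describe no group given albumin alone, so palmitate and its carrier cannot be told apart in any comparison. They give neither the number of knockout clones nor whether the 5 libraries came from separate cultures, so p-values measure the spread between libraries, which may be technical.

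Before S phase, the origin recognition complex, Cdc6 and Cdt1 load the ring-shaped MCM helicase onto DNA. The kinase pair of Cdc7 and Dbf4, with Mcm10, Cdc45 and the GINS complex, then turns the loaded rings into moving helicases, behind which polymerases copy both strands. Ribonucleotide reductase, thymidylate synthase and thymidine kinase feed the forks with deoxynucleotides, and E2F transcription factors are known to drive many of these genes as cells leave G1, while adult hepatocytes mostly rest outside the cycle.

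Promoters are shown first, because most of the listed genes moved together and a motif was searched in this window. The RefSeq table (GRCm38.p6) holds 300 bases per start site, 250 before it and 50 after it, and 46 of the 56 genes had an entry. The promoters of Mcm5 (chr8:75109259-75109558, plus strand), Mcm3 (chr1:20820263-20820562, minus strand), Rrm2 (chr12:24708004-24708303, plus strand) and Clspn (chr4:126556730-126557029, plus strand) belong to genes with large palmitate differences. Those of Pola1 (chrX:93632106-93632405, minus strand) and Rfc1 (chr5:65335590-65335889, minus strand) belong to genes with small palmitate differences and clear genotype differences. Cdk1 (chr10:69352863-69353162, minus strand), the mitotic kinase, shows the motif of the mitotic genes, but it is 1 of the 4 of them that also hold an E2F core, with 2 matches left in lower case. Capitals mark the E2F core (the form TTCCCGC, the form TTCGCGC, the form TTGCCGC or the form TTGGCGC, on either strand, matches may overlap) in the first 6 sequences, and the cell cycle homology region, CHR (TTTGAA on either strand), in Cdk1.
Mcm5: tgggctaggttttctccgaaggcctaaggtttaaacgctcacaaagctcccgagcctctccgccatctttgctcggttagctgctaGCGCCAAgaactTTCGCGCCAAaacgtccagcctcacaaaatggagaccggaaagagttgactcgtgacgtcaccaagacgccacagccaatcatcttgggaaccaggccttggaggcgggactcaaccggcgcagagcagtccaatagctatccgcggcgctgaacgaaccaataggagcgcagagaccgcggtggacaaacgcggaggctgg
Mcm3: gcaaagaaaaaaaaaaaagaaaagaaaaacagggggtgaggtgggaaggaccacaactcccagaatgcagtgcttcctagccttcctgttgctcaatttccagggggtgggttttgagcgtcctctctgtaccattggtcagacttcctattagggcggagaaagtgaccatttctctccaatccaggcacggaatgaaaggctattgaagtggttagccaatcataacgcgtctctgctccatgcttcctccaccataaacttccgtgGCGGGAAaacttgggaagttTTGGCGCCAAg
Rrm2: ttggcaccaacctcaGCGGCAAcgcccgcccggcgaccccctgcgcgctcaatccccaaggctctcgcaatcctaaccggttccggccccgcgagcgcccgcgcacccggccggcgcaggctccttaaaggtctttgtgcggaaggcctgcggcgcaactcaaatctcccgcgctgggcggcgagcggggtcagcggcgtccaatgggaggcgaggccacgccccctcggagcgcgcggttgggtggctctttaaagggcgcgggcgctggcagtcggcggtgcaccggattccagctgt
Clspn: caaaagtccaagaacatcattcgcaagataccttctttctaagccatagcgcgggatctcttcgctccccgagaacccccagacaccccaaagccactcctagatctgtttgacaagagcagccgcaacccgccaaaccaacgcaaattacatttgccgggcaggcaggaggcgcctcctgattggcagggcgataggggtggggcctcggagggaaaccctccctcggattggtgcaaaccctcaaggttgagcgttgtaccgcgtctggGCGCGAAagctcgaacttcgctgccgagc
Pola1: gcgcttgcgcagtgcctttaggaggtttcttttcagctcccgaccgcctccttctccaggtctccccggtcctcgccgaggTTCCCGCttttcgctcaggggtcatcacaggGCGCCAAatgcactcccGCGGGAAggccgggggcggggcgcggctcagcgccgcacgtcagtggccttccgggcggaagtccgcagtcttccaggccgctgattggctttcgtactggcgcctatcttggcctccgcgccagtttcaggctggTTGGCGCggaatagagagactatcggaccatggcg
Rfc1: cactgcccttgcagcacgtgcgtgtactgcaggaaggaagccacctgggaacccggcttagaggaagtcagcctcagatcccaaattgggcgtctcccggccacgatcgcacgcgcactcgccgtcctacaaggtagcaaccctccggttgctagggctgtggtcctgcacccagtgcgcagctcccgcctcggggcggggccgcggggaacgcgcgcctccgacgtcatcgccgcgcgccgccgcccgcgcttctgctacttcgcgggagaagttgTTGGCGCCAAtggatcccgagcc
Cdk1: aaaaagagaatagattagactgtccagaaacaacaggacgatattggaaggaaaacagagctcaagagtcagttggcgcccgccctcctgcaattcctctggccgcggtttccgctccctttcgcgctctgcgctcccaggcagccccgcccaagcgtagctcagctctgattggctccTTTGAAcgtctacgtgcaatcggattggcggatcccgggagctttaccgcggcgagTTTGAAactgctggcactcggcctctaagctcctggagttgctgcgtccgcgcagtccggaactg

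An E2F core was found in 27 of the 46 promoters (58.7%), against 9.69% of the promoters of all 27025 genes in the table. The share was 17% among the other 4462 genes listed in any table that had a promoter. It was 24.2% among all genes whose promoter held at least as many CpG dinucleotides as the median replication gene (24). The polymerase and primase genes held it in 5 of 7 promoters and the MCM helicase genes in 4 of 5, but the G1/S regulators in 0 of 2. The E2F core was at similar shares in other lists of related genes, namely 52.4% of checkpoint and repair, 11 of 22 G1/S control and 45.8% of further replication promoters. In mitotic genes it was in 4 of 25 promoters (16%), and the CHR in 19 of 25 (76%). The CHR was in 7 of 46 promoters of the replication genes (15.2%), against 18.1% of all genes. The CCAAT box (CCAAT on either strand) was in 26 of 46 (56.5%), against 37.9% of all genes, 66.7% of checkpoint and repair and 80.0% of mitotic promoters. The 23 genes with an E2F core that were listed for palmitate in WT cells had a median log2 fold change of 0.54, and the 18 without one had 0.474. Pola1, with 4 matches, and Rfc1, with 2 that overlap, had the smallest palmitate estimates of the 42 genes with counts in all 20 libraries.

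The read total per library ran from 21218794 to 30100704, and listed genes held 15.8 to 47.9% of the reads depending on the table. Values below are normalised counts, the deposited reads divided by 1 size factor per library. A log2 fold change comes from edgeR's quasi-likelihood test with its standard error (SE), and a gene is called when its adjusted p was below 0.05. Ripk3 had 11.7, 7.52, 2.83, 8.25 and 2.12 normalised counts in palmitate-treated and 5.73, 8.36, 2.004, 5.59 and 1.16 in untreated Ripk3-/- libraries, against 18.97, 22.2, 18.9, 23.2 and 26.98 in palmitate-treated and 10.2, 17.8, 25.5, 16.9 and 17.99 in untreated WT libraries. Its level was thus below every WT library of the same treatment in every knockout library, on few reads. Of 10 hepatocyte markers 8 were listed. The keratins Krt8 and Krt18 averaged 711 to 960 FPKM (fragments scaled to gene length and library size) where they had counts, the serum protein Ttr 371 to 481 and the liver factor Hnf4a 39.0 to 41.8, while albumin, Alb, was at 3.16 to 6.10 and fibrinogen beta, Fgb, at 0.176 to 0.378. The bile duct markers Spp1, Krt19 and Sox9 had counts in every group. Of the endothelial markers 0 of 5 were listed, and of the 5 macrophage markers Cd68 alone, at 1.42 FPKM in palmitate-treated and 0.835 in untreated Ripk3-/- cells, and 1.89 in palmitate-treated and 1.08 in untreated WT cells. Markers moved with palmitate in both genotypes: Alb (log2 fold change 0.78 in Ripk3-/- and 0.80 in WT cells), Cd68 (0.77 in Ripk3-/- and 0.80 in WT cells), Spp1 (0.23 in Ripk3-/- and 0.36 in WT cells) and Krt8 (-0.18 in Ripk3-/- and -0.25 in WT cells). Between genotypes Apoe was lower in Ripk3-/- cells (-2.60 with palmitate and -2.86 without), and Krt19 (0.48 with palmitate and 0.41 without) and Spp1 (0.20 with palmitate and 0.33 without) were higher. Other markers of the same cell types went the other way. The hepatocyte marker Trf was higher in Ripk3-/- cells (0.80 with palmitate and 0.74 without). The bile duct marker Sox9 was lower there (-0.18 with palmitate and -0.23 without). The part of these markers in the results below was not tested.

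Palmitate went with higher levels of nearly the whole replication machinery. In Ripk3-/- cells the authors' table listed 40 of the 56 genes with palmitate, all higher, where 5.76% of all genes tested were listed higher. In WT cells it listed 51, all higher, where 8.86% of all genes were. Each of the 40 was also among the 51, and 11 were listed in WT cells only: Mcm2, Cdc6, Pola1, Prim2, Rfc2, Rfc3, Rfc4, Pcna, Uhrf1, Ccne2 and Tipin. A gene outside a table has no counts from it, so whether these 11 differ between genotypes in their response was tested only for Pola1. Counts existed for 43 genes in palmitate-treated and 42 in untreated Ripk3-/- cells, and for 52 in both WT groups, with all 4 groups covered for 42 genes. On the deposited counts edgeR called 33 of the 40 in Ripk3-/- cells (82.5%), beside 73.9% of all genes listed there. It called 50 of the 51 in WT cells (98.0%), beside 92.7% of all genes listed there. Of all genes tested 4.41% were called higher in Ripk3-/- and 8.4% in WT cells. The 40 and 51 genes had been listed on these same counts, so their calls are not separate evidence. In the paragraphs on single roles below, called and not called refer to these per-table fits unless the fit over 20 libraries is named. That fit, described later, called 41 of 42 genes higher with palmitate in Ripk3-/- cells, against 23.4% of all its genes. The count in Ripk3-/- cells was 20 without untreated replicate 1, 21 without untreated replicate 2 and 21 without palmitate-treated replicate 5 of that genotype. Of all called genes 58.3% were higher in Ripk3-/- cells, against 45.6% with TMM and 38.0% with DESeq2 size factors, and in WT cells 57.3%, against 45.5% with TMM and 42.0% with DESeq2 size factors. These TMM and DESeq2 factors were computed on listed genes only, which had been selected as changed, so they are no check of the authors' factors over all genes. The genes of the set were higher under each scaling. Untreated Ripk3-/- replicate 1 stood apart from its group: the chi-square of counts per degree of freedom was 28.2 to 38.7 in its 4 pairs and at most 13.8 in the other 36 pairs of libraries. In the authors' deposited enrichment table the KEGG term DNA replication had 19 genes listed for palmitate in Ripk3-/- cells, all higher, of 43 in their background (their adjusted p = 3.48e-08). In bulk RNA, more cells in S phase and more RNA per cell cannot be told apart.

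**Figure D1:**
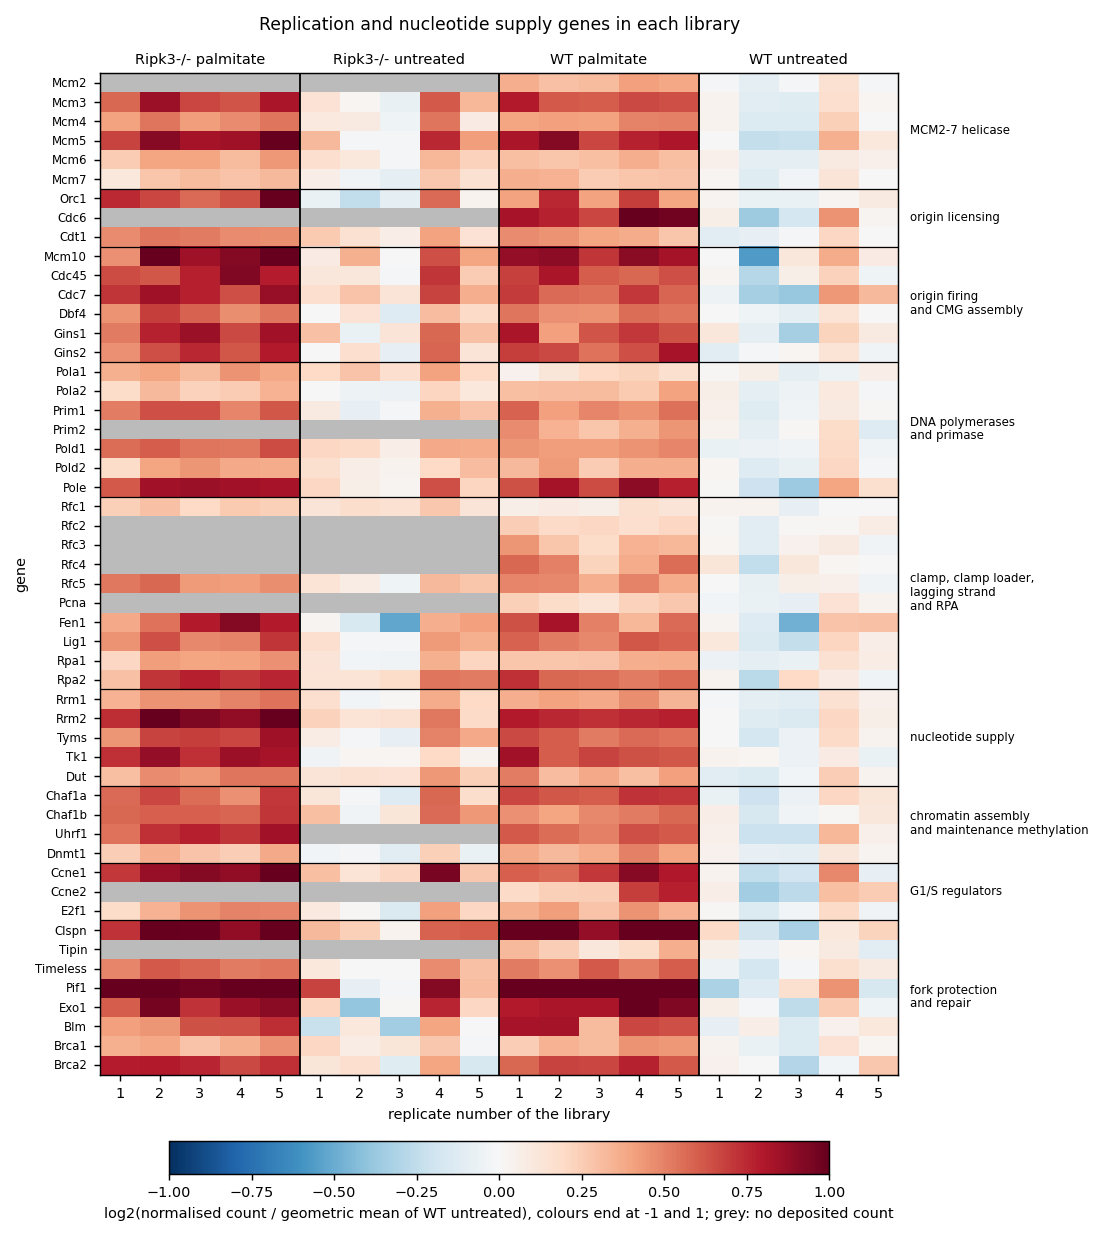
Each row is 1 of the 52 listed genes and each column 1 library, in the order palmitate-treated and untreated Ripk3-/- cells, then palmitate-treated and untreated WT cells. Colour is the log2 ratio of the normalised count to the geometric mean of the 5 untreated WT libraries, and grey marks genes with no deposited count in that group. Both palmitate groups are red in almost every row, and replicate 4 is the reddest untreated library of each genotype.

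The MCM helicase genes rose with palmitate, Mcm5 most. Mcm5 (ENSMUSG00000005410, chr8:75109569-75128439) encodes 1 subunit of the ring. Its normalised counts were 1075, 1264, 1195, 1212 and 1379 in palmitate-treated and 842, 666, 665, 1136 and 897 in untreated Ripk3-/- libraries. They were 1184, 1269.7, 1069, 1146 and 1181 in palmitate-treated and 673, 572, 575, 859 and 724 in untreated WT libraries. Every treated WT library thus lay above every untreated one, while in Ripk3-/- cells untreated replicate 4 reached into the treated range. The log2 fold change was 0.55, SE 0.12, edgeR adjusted p = 0.0115 in Ripk3-/- cells and 0.78, SE 0.09, edgeR adjusted p = 3.65e-05 in WT cells. Mcm3 (ENSMUSG00000041859, chr1:20802968-20820312), another subunit, had 2106, 2554, 2239, 2183 and 2488 in palmitate-treated and 1562, 1432, 1341, 2162 and 1779 in untreated Ripk3-/- libraries, with untreated replicate 4 again inside the treated range (0.49, SE 0.11, edgeR adjusted p = 0.0107). In WT libraries Mcm3 had 2439, 2162, 2144, 2225 and 2207 with palmitate and 1447, 1309.7, 1300.5, 1589 and 1429.7 without, a clear separation (0.66, SE 0.05, edgeR adjusted p = 6.93e-08). Mcm4 changed by 0.31 on the log2 scale in Ripk3-/- cells and 0.44 in WT cells, and Mcm2, listed in WT cells only, by 0.35. Mcm6 and Mcm7 had the smallest values, 0.19 and 0.19 in Ripk3-/- cells, where neither was called, and 0.31 and 0.30 in WT cells, where both were.

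These subunits assemble into 1 ring but differed in level per gene length, in the order Mcm6, Mcm7, Mcm2, Mcm3, Mcm4 and Mcm5 in untreated WT cells. Mcm6 averaged 33.4 ± 0.713 FPKM in palmitate-treated and 27.0 ± 1.70 in untreated WT cells (SD, n = 5). Mcm5, the lowest, averaged 11.7 ± 0.724 FPKM in palmitate-treated and 6.83 ± 1.20 in untreated WT cells (SD, n = 5). Mcm2 and Mcm3, neighbours in that order, did not differ beyond their spread in untreated WT cells (16.7 ± 1.09 and 15.1 ± 1.27 FPKM, SD, n = 5). Over the whole set, Pcna was highest in untreated WT cells at 44.9 ± 3 FPKM and Pif1 lowest at 0.462 ± 0.102 (SD, n = 5). Genes of low level had the larger palmitate log2 fold changes. The Spearman correlation between the untreated level and the fold change was -0.72 over 40 genes in Ripk3-/- cells and -0.64 over 51 genes in WT cells, as a description. These points share their libraries, the untreated level enters both measures, and a gene of low count needs a larger change to be listed.

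Among the genes that load the helicase, Cdc6 (ENSMUSG00000017499, chr11:98907801-98923940), the loading ATPase, changed most. It had 391, 377, 351, 451 and 432 normalised counts in palmitate-treated WT libraries and 230.5, 173, 196, 303 and 226 in untreated ones, with no overlap (0.83, SE 0.12, edgeR adjusted p = 8.81e-05), and no counts in Ripk3-/- cells were used. Orc1 (ENSMUSG00000028587, chr4:108579423-108614833), the largest subunit of the origin recognition complex, had 159.7, 151, 141, 148 and 193 in palmitate-treated and 90.8, 80.5, 89.2, 141 and 97.6 in untreated Ripk3-/- libraries (0.67, SE 0.15, edgeR adjusted p = 0.0109). In WT libraries Orc1 had 126, 160.4, 126, 154 and 126 with palmitate and 96.9, 90.8, 91.01, 96.9 and 101 without (0.54, SE 0.10, edgeR adjusted p = 0.00132). The groups of Orc1 did not overlap in WT cells. In Ripk3-/- cells untreated replicate 4 (140.99) all but met the lowest treated library (141.31). Cdt1, the partner of Cdc6 in loading, rose by 0.28 on the log2 scale in Ripk3-/- cells and 0.39 in WT cells.

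All 6 listed genes that fire origins were called in both genotypes, beside 73.9% of all genes listed in Ripk3-/- and 92.7% in WT cells. Mcm10 (ENSMUSG00000026669, chr2:4989714-5012791), which activates the loaded helicase, had 247, 367, 322, 339 and 398 normalised counts in palmitate-treated and 190.2, 229.9, 180.3, 281 and 236 in untreated Ripk3-/- libraries (0.59, SE 0.14, edgeR adjusted p = 0.0171). In WT libraries Mcm10 had 330.5, 334, 295, 335 and 320.2 with palmitate and 179, 121, 194, 232 and 190.3 without (0.82, SE 0.12, edgeR adjusted p = 8.38e-05). The treated Ripk3-/- libraries spread more widely than the treated WT ones, and replicate 1 was the lowest of them. Gins2 (ENSMUSG00000031821, chr8:120578633-120589304), a GINS subunit, had 223, 254, 275, 251 and 283 in palmitate-treated and 163, 183, 154, 244 and 178 in untreated Ripk3-/- libraries, which overlapped (0.48, SE 0.12, edgeR adjusted p = 0.0241). In WT libraries Gins2 had 264, 257, 237, 255 and 289 with palmitate and 151, 162, 165, 179 and 159 without, which did not (0.67, SE 0.08, edgeR adjusted p = 8.76e-06). Cdc45 of the moving helicase, the GINS subunit Gins1, the kinase Cdc7 and its activator Dbf4 rose by 0.44 to 0.50 on the log2 scale in Ripk3-/- cells and by 0.51 to 0.66 in WT cells.

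**Figure D2:**
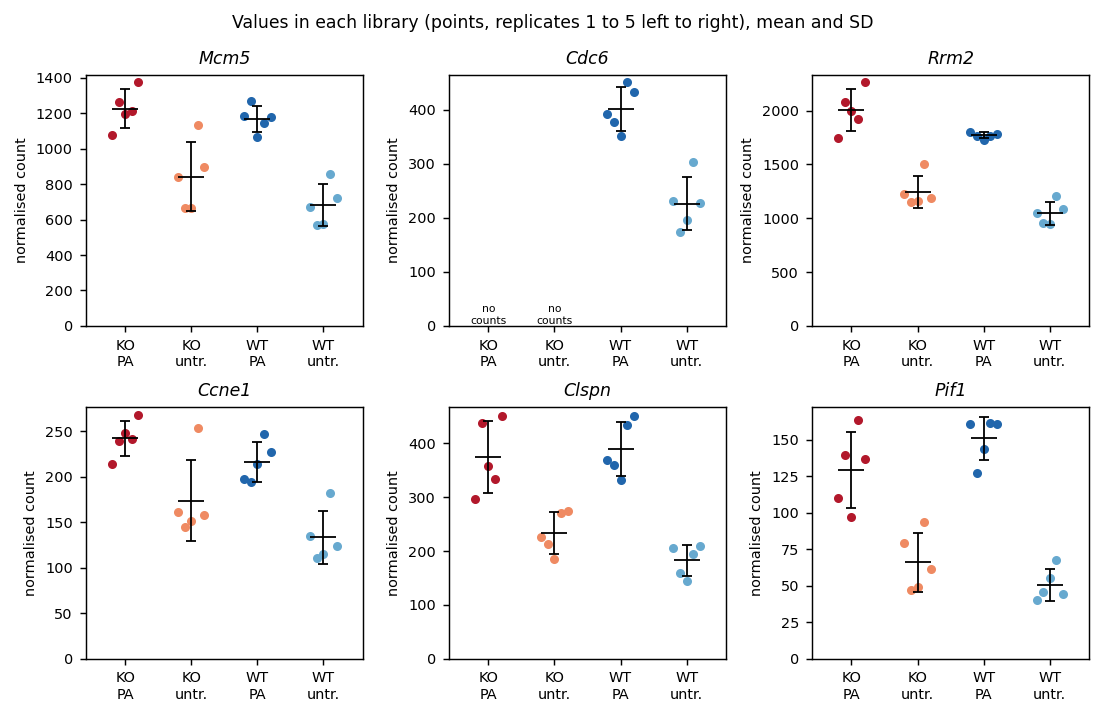
Normalised counts on a linear axis from 0 for 6 genes in palmitate-treated (KO PA) and untreated (KO untr.) Ripk3-/- libraries and in palmitate-treated (WT PA) and untreated (WT untr.) WT libraries. Each point is 1 library, the horizontal bar the mean and the vertical bar the SD of 5 libraries, and Cdc6 has no counts in Ripk3-/- cells. In WT cells all treated points lie above all untreated ones for each of the 6 genes, while in Ripk3-/- cells untreated replicate 4 reaches the treated range for Mcm5 and Ccne1.

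Polymerase genes changed unequally. Pole (ENSMUSG00000007080, chr5:110286306-110337474), the catalytic subunit of the leading strand polymerase epsilon, had 726, 849, 862, 848 and 838 normalised counts in palmitate-treated and 546, 493, 482, 742 and 548 in untreated Ripk3-/- libraries (0.55, SE 0.10, edgeR adjusted p = 0.00286). In WT libraries Pole had 736, 845, 744, 878 and 810.5 with palmitate and 477, 411, 369, 624 and 528 without (0.74, SE 0.11, edgeR adjusted p = 0.00034). The groups separated in WT cells, and in Ripk3-/- cells untreated replicate 4 stood just above treated replicate 1. Prim1 (ENSMUSG00000025395, chr10:128015168-128030037), the catalytic primase subunit, had 503, 549.7, 551, 495 and 541 in palmitate-treated and 376, 333, 349.7, 449.8 and 429.8 in untreated Ripk3-/- libraries (0.45, SE 0.09, edgeR adjusted p = 0.00443). In WT libraries Prim1 had 530.1, 468, 494, 481 and 516 with palmitate and 366, 324, 343, 375 and 355 without (0.50, SE 0.06, edgeR adjusted p = 1.08e-05), and neither genotype showed overlap. Pola1, the catalytic subunit of the priming polymerase alpha, had the smallest listed change in WT cells (0.15, SE 0.04, edgeR adjusted p = 0.0287), and its call was lost under either other scaling, both computed on listed genes only. Its accessory subunit Pola2 rose by 0.23 in Ripk3-/- cells and 0.32 in WT cells, and the catalytic subunit of polymerase delta, Pold1, by 0.33 in Ripk3-/- cells and 0.44 in WT cells. Pold2, the accessory subunit of delta, had 0.20 in Ripk3-/- cells, which was not called, and rose by 0.34 in WT cells, and Prim2, the large primase subunit, rose by 0.38 in WT cells.

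Of the genes of the sliding clamp, its loader, the lagging strand and single-stranded DNA binding, Rpa2 and Fen1 changed most in WT cells. Rpa2 (ENSMUSG00000028884, chr4:132768332-132778752), a subunit of the single-strand binding protein RPA, had 290.0, 389.7, 406, 388 and 401 normalised counts in palmitate-treated and 261, 260.2, 269, 344 and 340.4 in untreated Ripk3-/- libraries. Treated replicate 1 lay among the untreated libraries, and the gene was not called there (0.35, SE 0.11, edgeR adjusted p = 0.0865). In WT libraries Rpa2 had 392, 354, 349, 339.5 and 349.5 with palmitate and 242, 197, 272, 250.2 and 230.1 without, a clean separation (0.58, SE 0.08, edgeR adjusted p = 6.4e-05). Fen1 (ENSMUSG00000024742, chr19:10199132-10204169), the nuclease that trims Okazaki fragments, had 142, 159, 188, 206 and 188 in palmitate-treated and 111, 98.2, 76.1, 139.9 and 145 in untreated Ripk3-/- libraries (0.64, SE 0.16, edgeR adjusted p = 0.0266). In WT libraries Fen1 had 169.7, 193, 155, 137 and 162 with palmitate and 111, 99.7, 78.3, 133 and 134 without (0.55, SE 0.13, edgeR adjusted p = 0.00862), so the groups barely parted in WT cells and overlapped in Ripk3-/- cells. Lig1, the ligase that joins the fragments, rose by 0.37 in Ripk3-/- cells and 0.55 in WT cells, and Rpa1, the large RPA subunit, by 0.24 in Ripk3-/- cells and 0.31 in WT cells. The clamp Pcna rose by 0.21 in WT cells, where untreated replicate 4 lay above the lowest treated library. It has processed pseudogenes in mouse, and how reads shared with them were counted is not known from the labels. The clamp loader subunits Rfc2, Rfc3, Rfc4 and Rfc5 rose by 0.20 to 0.44 in WT cells, and Rfc5 by 0.32 in Ripk3-/- cells. Rfc1, the large loader subunit, was in neither palmitate table, and over 20 libraries it had 0.07, SE 0.03 in Ripk3-/- cells and 0.10, SE 0.03 in WT cells.

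All 5 genes of nucleotide supply were called in both genotypes, beside 73.9% of all genes listed in Ripk3-/- and 92.7% in WT cells. Rrm2 (ENSMUSG00000020649, chr12:24708241-24714146), the small subunit of ribonucleotide reductase, had 1744, 2082, 1997, 1925 and 2268 normalised counts in palmitate-treated and 1224, 1146, 1162, 1501 and 1188 in untreated Ripk3-/- libraries (0.69, SE 0.08, edgeR adjusted p = 5.99e-05). In WT libraries Rrm2 had 1804, 1759.6, 1730.5, 1762 and 1785 with palmitate and 1044, 959.8, 942, 1207 and 1086 without (0.76, SE 0.05, edgeR adjusted p = 2.45e-08). Tk1 (ENSMUSG00000025574, chr11:117815526-117826092), the cytosolic thymidine kinase, had 708, 785, 710.3, 775 and 758 in palmitate-treated and 418, 433, 433, 491 and 438 in untreated Ripk3-/- libraries (0.76, SE 0.06, edgeR adjusted p = 4.17e-06). Treated and untreated libraries were far apart for both genes. Tk1 was 1 of 4 genes, with Orc1, Fen1 and Brca2, whose estimate over 20 libraries was larger in Ripk3-/- than in WT cells. For Brca2 the estimates were all but equal, with a difference of 0.0005 on the log2 scale, and the difference was called for none of the 4. In WT libraries Tk1 had 764, 649, 682, 666 and 659 with palmitate and 438, 433, 409.5, 452 and 407 without (0.68, SE 0.06, edgeR adjusted p = 1.56e-07). Tyms, thymidylate synthase, rose by 0.48 in Ripk3-/- and 0.58 in WT cells, and Rrm1, the large reductase subunit, by 0.31 in Ripk3-/- cells and 0.39 in WT cells. Dut, which removes dUTP, rose by 0.24 in Ripk3-/- cells and 0.38 in WT cells.

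Chromatin genes of the fork rose as well. Chaf1a (ENSMUSG00000002835, chr17:56040416-56068026), the large subunit of the histone chaperone CAF-1, had 750.2, 805, 744, 695 and 824 normalised counts in palmitate-treated and 549.5, 503, 463, 752 and 572 in untreated Ripk3-/- libraries (0.43, SE 0.11, edgeR adjusted p = 0.0209). In WT libraries Chaf1a had 805, 779, 772, 835 and 825 with palmitate and 484, 439, 485, 585 and 549 without (0.66, SE 0.07, edgeR adjusted p = 1.25e-06), and untreated Ripk3-/- replicate 4 alone lay among treated libraries of its genotype. Uhrf1 (ENSMUSG00000001228, chr17:56303321-56323486), which guides the maintenance methyltransferase to new DNA, had 1683, 1617, 1560.3, 1720.2 and 1677 in palmitate-treated and 1139.5, 946, 946, 1381 and 1138 in untreated WT libraries (0.57, SE 0.08, edgeR adjusted p = 0.000242). Dnmt1, that methyltransferase, rose by 0.30 in Ripk3-/- and 0.39 in WT cells. Chaf1b, the middle CAF-1 subunit, had 0.32 in Ripk3-/- cells, which was not called, and rose by 0.48 in WT cells.

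Of the regulators of entry into S phase, the per-table fits called Ccne1 and E2f1 in WT cells but not in Ripk3-/- cells. The authors listed both as higher in Ripk3-/- cells too. There the fit over 20 libraries called both, beside 23.4% of all its genes called higher. The difference between genotypes was called for neither. Ccne1 (ENSMUSG00000002068, chr7:38097984-38107534), cyclin E1, had 214, 239, 248, 241 and 268 normalised counts in palmitate-treated and 162, 144, 151, 253 and 158 in untreated Ripk3-/- libraries (0.48, SE 0.14, edgeR adjusted p = 0.0517). Untreated replicate 4 was the single library of its group inside the treated range. In WT libraries Ccne1 had 198, 194, 213, 247 and 228 with palmitate and 134, 110.4, 115, 182 and 124 without (0.70, SE 0.12, edgeR adjusted p = 0.000635). E2f1 (ENSMUSG00000027490, chr2:154559407-154569892), the transcription factor, had 587, 660.3, 708, 728 and 725 in palmitate-treated and 552, 520.4, 468, 686 and 598 in untreated Ripk3-/- libraries, which overlapped (0.27, SE 0.09, edgeR adjusted p = 0.116). In WT libraries E2f1 had 662, 693, 630.3, 706 and 657 with palmitate and 520.4, 471, 509, 589.8 and 505 without, which did not (0.37, SE 0.06, edgeR adjusted p = 0.000244). Ccne2, cyclin E2, was listed by the authors in WT cells, but edgeR did not call it (0.43, SE 0.14, edgeR adjusted p = 0.0607).

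Genes of fork protection and repair included the largest change in each genotype, that of Pif1, but also small ones. Their values ran from 0.23 to 0.96 in Ripk3-/- and from 0.24 to 1.58 in WT cells. All that were listed were called, beside 73.9% of all genes listed in Ripk3-/- and 92.7% in WT cells. Pif1 (ENSMUSG00000041064, chr9:65587160-65595967), a helicase that unwinds DNA structures at forks and telomeres, had 110.4, 139.6, 97.03, 164 and 137 normalised counts in palmitate-treated and 79.3, 47.03, 49.1, 93.99 and 61.6 in untreated Ripk3-/- libraries (0.96, SE 0.20, edgeR adjusted p = 0.00628). In WT libraries Pif1 had 161, 128, 144, 162 and 161 with palmitate and 39.97, 45.4, 55.5, 67.7 and 44.5 without (1.58, SE 0.13, edgeR adjusted p = 2.19e-07). Treated values overlapped between genotypes, and untreated Ripk3-/- libraries included the 2 highest untreated values. Clspn (ENSMUSG00000042489, chr4:126556935-126593903), claspin, the adaptor of the replication checkpoint kinase, had 297, 437, 357, 333 and 451 in palmitate-treated and 226, 213, 184, 271 and 274 in untreated Ripk3-/- libraries (0.69, SE 0.14, edgeR adjusted p = 0.00503). In WT libraries Clspn had 369, 360.4, 332, 434 and 452 with palmitate and 206, 158, 144, 194 and 210.2 without (1.09, SE 0.11, edgeR adjusted p = 1.7e-06), and neither genotype showed overlap. The resection nuclease Exo1 rose by 0.61 in Ripk3-/- cells and 0.89 in WT cells, and the helicase Blm by 0.57 in Ripk3-/- cells and 0.66 in WT cells. Brca2, a mediator of homologous recombination, rose by 0.65 in Ripk3-/- and 0.66 in WT cells, Brca1, which promotes that repair, by 0.23 in Ripk3-/- cells and 0.36 in WT cells, and the fork protector Timeless by 0.36 in Ripk3-/- cells and 0.54 in WT cells. Tipin, the partner of Timeless, rose by 0.24 in WT cells.

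**Figure D3:**
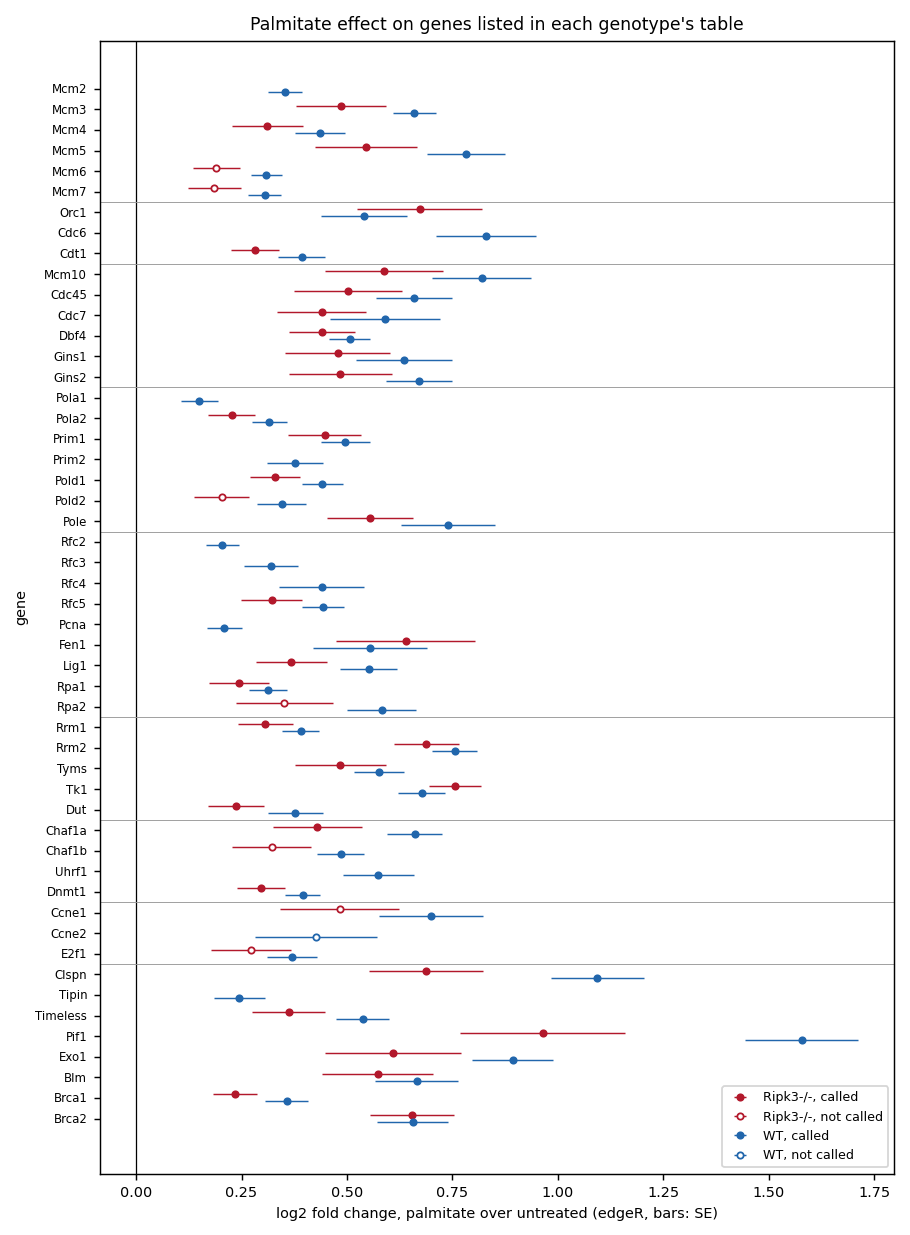
The edgeR log2 fold change of palmitate over untreated (x axis, bars are SE) is drawn for each listed gene in Ripk3-/- cells (red) and WT cells (blue), grouped by role. Filled points are called, open ones are not. All values lie above 0, and Pif1 and Clspn stand farthest right in WT cells at 1.58 and 1.09.

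The palmitate response did not differ detectably between genotypes. This was tested on the 42 genes with counts in all 20 libraries, as an interaction term in 1 fit over 2993 genes. In that fit 41 of 42 genes were called higher with palmitate in Ripk3-/- cells, against 23.4% of all genes, and 42 of 42 in WT cells, against 24.9%. Of the 42 genes 40 were listed for palmitate in both genotypes, which alone put them into this fit. Of all 2993 genes 1052 had been listed for palmitate in Ripk3-/- and 1223 in WT cells. The calls among the 42 genes thus follow largely from the listing. The median log2 fold change was 0.436 in Ripk3-/- and 0.545 in WT cells, and the Pearson correlation over these 42 genes was 0.885, beside 0.863 over all 2993 genes. The estimate was smaller in Ripk3-/- cells for 38 of 42 genes, with a median difference of -0.121 and a range of -0.61 to 0.13 on the log2 scale. Over all 2993 genes the difference was below 0 for 53.6%, with a median of -0.008. edgeR called the difference for 0 of 42 genes and for 0.0% of all genes, and at an unadjusted p below 0.05 there were 2 of 42 and 172 of 2993, so the share among these genes was near that of all genes. Those 2 were Pif1 (-0.61, SE 0.25, edgeR adjusted p = 0.795) and Clspn (-0.40, SE 0.19, edgeR adjusted p = 0.859), whose WT response was the larger. SEs of the difference ran from 0.05 to 0.25, so differences of the size of the median were not detectable for most genes.

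Between genotypes the tables listed few of these genes. Untreated Ripk3-/- and WT cells differed in 10 genes of the set by the authors' table, all higher in Ripk3-/- cells, where 9.09% of all genes tested were listed higher: Mcm6, Cdt1, Pola1, Pold1, Rfc1, Rpa2, Rrm2, Dut, Chaf1b and Clspn. With palmitate there were 5, again all higher, where 12.3% of all genes were: Pola1, Pold1, Rfc1, Rrm2 and Uhrf1. As shares of the 56 genes these were 17.9% without palmitate and 8.93% with it. edgeR called 3 of the 10 untreated (7.08% of all genes), which were Pola1, Pold1 and Rfc1, and 5 of the 5 with palmitate (12.1% of all genes). Among all genes listed for genotype, edgeR called 80.7% untreated and 98.3% with palmitate. In the authors' deposited enrichment tables the term DNA replication had an adjusted p of 0.918 for genotype without palmitate and of 1 with it.

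In the per-table fits edgeR called Pola1, Pold1 and Rfc1 between genotypes both with and without palmitate, and the fit over 20 libraries called Rrm2 both ways as well. Pola1 (ENSMUSG00000006678, chrX:93304767-93632155) had 1262, 1296, 1230.3, 1348 and 1289.6 normalised counts in palmitate-treated Ripk3-/- libraries and 1015, 1075, 1133, 1149.8 and 1101 in palmitate-treated WT libraries (0.23, SE 0.04, edgeR adjusted p = 0.000199). Without palmitate it had 1135, 1203, 1107, 1304 and 1131 in Ripk3-/- and 995, 1030.2, 927, 955 and 1033 in WT libraries (0.25, SE 0.05, edgeR adjusted p = 0.00534), so the genotypes did not overlap under either treatment. Rfc1 (ENSMUSG00000029191, chr5:65261850-65335670) had 2444, 2530.5, 2367, 2475 and 2438 in palmitate-treated Ripk3-/- and 2148, 2192, 2149, 2309.6 and 2258 in palmitate-treated WT libraries (0.15, SE 0.03, edgeR adjusted p = 0.000646). Without palmitate Rfc1 had 2263, 2337, 2297, 2493 and 2263 in Ripk3-/- and 2117, 2120.0, 1950.3, 2075 and 2076 in WT libraries (0.17, SE 0.04, edgeR adjusted p = 0.00723), again with no overlap. Pold1 (ENSMUSG00000038644, chr7:44532746-44548849) had 1117, 1155, 1096, 1093 and 1188 in palmitate-treated Ripk3-/- and 1031, 1013, 1012, 1036 and 1065 in palmitate-treated WT libraries (0.13, SE 0.04, edgeR adjusted p = 0.0123). Without palmitate Pold1 had 874, 866, 794, 988 and 979 in Ripk3-/- and 725, 729, 739.9, 864 and 739 in WT libraries (0.24, SE 0.07, edgeR adjusted p = 0.0256), where WT replicate 4 fell inside the Ripk3-/- range, and the call was lost without 1 library for 6 of the 10 libraries. Rrm2 was higher in Ripk3-/- than in WT cells with palmitate (0.18, SE 0.05, edgeR adjusted p = 0.0129), with overlapping libraries, and so was Uhrf1 (0.14, SE 0.04, edgeR adjusted p = 0.028), with 1597, 1827, 1881, 1799 and 1962 normalised counts in palmitate-treated Ripk3-/- libraries beside its WT values above. The groups of Uhrf1 overlapped, and its call was lost without any 1 of 5 libraries.

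The fit over 20 libraries gave a fuller view, on 2993 genes of which 2384 had been listed for genotype with palmitate and 2303 without it. Without palmitate all 42 genes had an estimate above 0 in Ripk3-/- relative to WT cells, against 53.9% of all 2993 genes. Their median was 0.177 against 0.048 over all 2993 genes, and 19 were called (41.3% of all genes were called higher). The genes moved together from library to library, as given below, so these signs are not 42 separate results. That number ran from 9 to 31 when single libraries were left out: 9 without Ripk3-/- replicate 4, 11 without Ripk3-/- replicate 5, 10 without WT replicate 2 or 3, and 31 without Ripk3-/- replicate 3. With palmitate 33 of 42 estimates were above 0, the median was 0.059, and 5 were called (39.0% of all genes): Pola1, Rfc1, Rrm2, Pold1 and Tk1. Called differences of at least 0.3 were found without palmitate for Ccne1 (0.38, SE 0.14, edgeR adjusted p = 0.0189), Clspn (0.35, SE 0.14, edgeR adjusted p = 0.0232), Mcm5 (0.30, SE 0.13, edgeR adjusted p = 0.0412) and Rpa2 (0.30, SE 0.10, edgeR adjusted p = 0.0101), whose library values are given above and overlap between genotypes. Without Ripk3-/- replicate 4 they were 0.21 for Ccne1, 0.29 for Clspn and 0.17 for Mcm5, none of them called, and 0.24 for Rpa2, which was. The comparisons of genotype and of palmitate share the untreated libraries, so a higher untreated level in Ripk3-/- cells and a smaller palmitate difference there are not separate results.

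**Figure D4:**
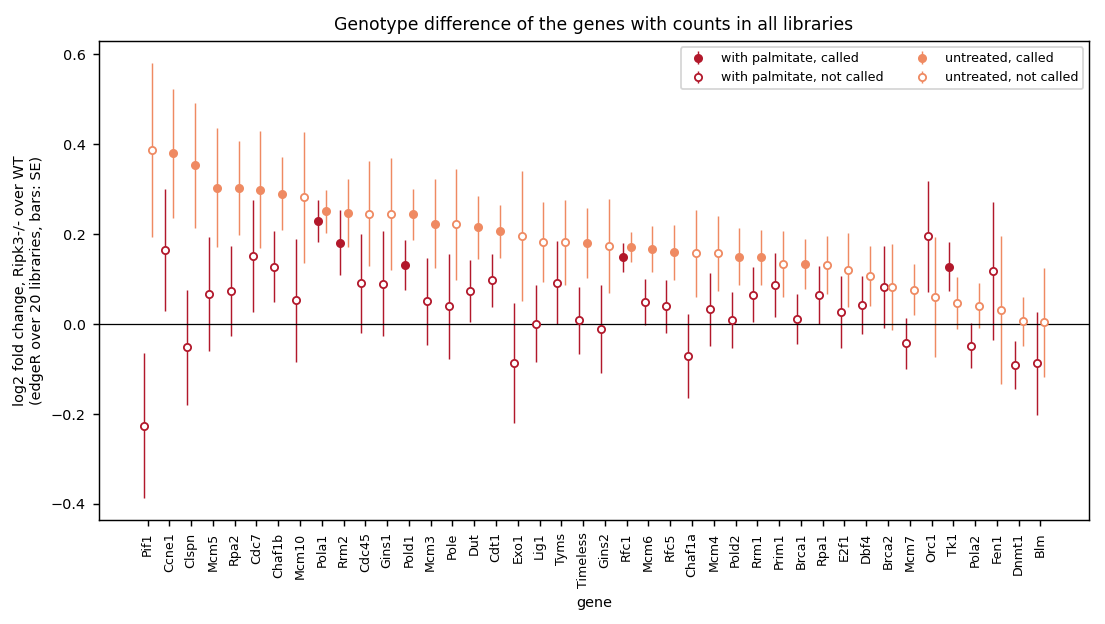
The log2 fold change of Ripk3-/- over WT cells with palmitate (dark red) and untreated (orange), from the edgeR fit over 20 libraries, is drawn for 42 genes ordered by the untreated value, with bars for SE and filled points where called. The 42 untreated values are all above 0 and reach 0.39, while the values with palmitate lie from -0.23 to 0.23.

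Libraries of 1 group did not hold these genes at 1 level, and the genes moved together from library to library. Of the untreated Ripk3-/- libraries, replicate 4 was the highest for 39 of 42 genes, against 24.9% of all 3611 genes with counts there, with a median log2 deviation of 0.284 from the group mean. In untreated WT cells replicate 4 was the highest for 40 of 52 genes, against 21.1% of all genes, with a median deviation of 0.158. Mitotic genes showed the same libraries, with replicate 4 highest for 29 of 29 genes in untreated Ripk3-/- cells and 24 of 29 in untreated WT cells. Palmitate-treated Ripk3-/- replicate 1 was the lowest for 30 of 43 genes (69.8%), against 28.9% of all 4823 genes with counts there. The median coefficient of variation over the genes was 6.74% in palmitate-treated and 14.7% in untreated Ripk3-/- cells, against 5.14% in palmitate-treated and 8.72% in untreated WT cells. Over all genes with counts it was 4.79% in palmitate-treated and 6.83% in untreated Ripk3-/- cells, against 4.44% in palmitate-treated and 5.57% in untreated WT cells. The fit over 20 libraries was rerun with both untreated libraries numbered 4 left out, a choice made after seeing this pattern. It called 42 of 42 genes higher with palmitate in each genotype, which follows largely from their listing. For genotype without palmitate it called 17. With all libraries kept, 23.4% of all genes were called higher for palmitate in Ripk3-/- cells, 24.9% in WT cells and 41.3% for genotype without palmitate. These shares are not given here for the rerun.

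**Figure D5:**
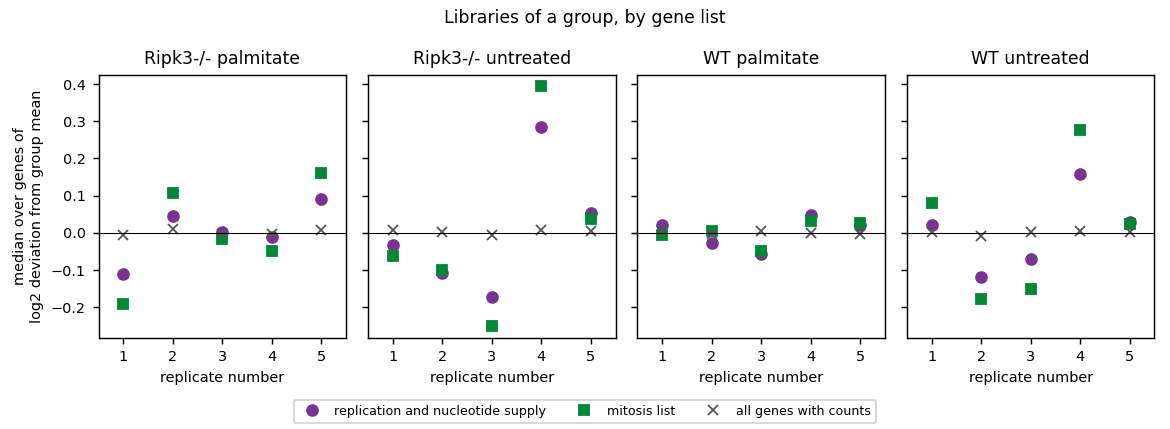
For each library (x axis, replicate number) the median over genes of the log2 deviation from the group mean is drawn, for the replication and nucleotide supply genes, the mitotic genes and all genes with counts. All genes stay near 0 in every library. The replication genes reach 0.284 in untreated Ripk3-/- replicate 4 and 0.158 in untreated WT replicate 4, and the mitotic genes lie further out on the same side.

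Other genes of the same processes were called with palmitate as well, with 1 gene lower in each genotype and the others higher. Of all genes tested 4.41% were called higher in Ripk3-/- and 8.4% in WT cells. Of 30 further replication genes 11 were called higher in Ripk3-/- and 16 in WT cells, and 0 lower in either. They included Recql4, a helicase of origin firing (1.07, SE 0.17 in Ripk3-/- and 1.04, SE 0.11 in WT cells), and Ticrr, the origin-firing factor treslin (0.74, SE 0.15 in Ripk3-/- and 1.05, SE 0.10 in WT cells). The largest of the list was Pold4, a small polymerase delta subunit, in Ripk3-/- cells (1.29, SE 0.34) and Ticrr in WT cells, where Dscc1 of the alternative clamp loader followed Recql4 (0.94, SE 0.18). Of 33 further nucleotide synthesis genes 6 were called higher and 1 lower in Ripk3-/- cells, and 11 higher and 1 lower in WT cells. The lower one was Ctps, a CTP synthase, in Ripk3-/- cells (-0.15, SE 0.04). In WT cells it was a gene that the files name Ppat (-0.14, SE 0.04), but whose ID, ENSMUSG00000001755, belongs to Coasy of coenzyme A synthesis. Both were named after their values were seen. They included deoxycytidine kinase, Dck (0.28, SE 0.06 in Ripk3-/- and 0.38, SE 0.05 in WT cells), and the folate enzyme Shmt2 (0.27, SE 0.05 in Ripk3-/- and 0.50, SE 0.04 in WT cells). Of 29 further G1/S control genes 5 were called higher in Ripk3-/- and 10 in WT cells. The called genes were led by the atypical E2F repressors E2f7 (0.68, SE 0.12 in Ripk3-/- and 0.80, SE 0.13 in WT cells) and E2f8 (0.64, SE 0.15 in Ripk3-/- and 0.92, SE 0.11 in WT cells). Next among called genes came the pocket protein gene Rbl1 in Ripk3-/- cells (0.41, SE 0.09) and the activator E2f2 in WT cells (0.78, SE 0.20). In Ripk3-/- cells the per-table fit did not call E2f2, although the authors listed it there at 0.99, above E2f7 and E2f8. The fit over 20 libraries called E2f2 in Ripk3-/- cells (0.996, SE 0.26, edgeR adjusted p = 0.00352).

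Checkpoint and repair genes and mitotic genes had larger medians, and the shares of all genes called higher are again 4.41% in Ripk3-/- and 8.4% in WT cells. Of 32 checkpoint and repair genes 12 rose in Ripk3-/- and 18 in WT cells, led in both by Fancd2 of interstrand crosslink repair (1.13, SE 0.12 in Ripk3-/- and 1.33, SE 0.10 in WT cells). Rad54l (1.08, SE 0.15) and Fanci (1.05, SE 0.12) followed in WT cells. Of 30 mitotic genes 29 rose in both genotypes, with a median log2 fold change of 1.01 in Ripk3-/- and 1.24 in WT cells. The largest were Kif2c, a kinesin that depolymerises microtubules, (1.25, SE 0.14), Hmmr (1.21, SE 0.12) and Nusap1 (1.21, SE 0.09) of the spindle in Ripk3-/- cells. In WT cells they were the kinetochore gene Cenpf (1.46, SE 0.09), Hmmr (1.41, SE 0.09) and the kinase Plk1 (1.37, SE 0.08). The replication and nucleotide supply genes had a median of 0.44 over the 40 listed in Ripk3-/- and 0.51 over the 51 listed in WT cells, beside 0.16 over all genes listed in Ripk3-/- and 0.12 in WT cells. The edgeR adjusted p of the called genes named from these lists was at most 0.0328.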

How the data were processed

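RNA-seq was made from total RNA of 20 libraries in 4 groups of 5, mapped to groups by their titles, with 21218794 to 30100704 reads each. Per the submitters' processing notes, FastQC 0.11.9, HISAT2, featureCounts 1.5.0-p3 and DESeq2 were used with build mm10. No annotation, strand setting or other version is stated in the labels or headers (not given in the sources used here), so reads of overlapping genes cannot be assigned by strand. The authors deposited 4 tables, 1 per pair of groups, with the raw read count of each gene in 10 libraries, their normalised counts (a signal scaled by 1 factor per library), FPKM, log2 fold change, p-value and adjusted p-value. Each table lists genes past an adjusted p of 0.05 only. The number of genes the authors tested (12871 to 17611) was worked out from the deposited p-values. The authors also deposited enrichment tables with p-values and gene numbers per term, which were described only. There were 0 columns of other samples.

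edgeR 4.0.16 (R 4.3.3, quasi-likelihood, robust) was fitted to the counts of each table, on all its genes, with the authors' size factors and Benjamini-Hochberg adjustment over the genes they tested. A second fit used the 2993 genes with counts in all 20 libraries and joint size factors. SE is the log2 fold change divided by the root of F. Dispersions come from listed genes, so both fits describe these genes and not the transcriptome. Alternatives were DESeq2 1.42.0, limma 3.58.1 with pseudocount 1 or 10, TMM and DESeq2 size factors, a filter at a mean of 20 reads, a replicate block and single libraries left out. TMM and DESeq2 size factors were computed on the genes of each fit only. The fits were tested on simulated data. Every gene of the set is named. Library values are given for the 2 genes of each role with the largest called change in WT cells and for genes called between genotypes at 0.3 or more; those of Pola1, Pold1 and Rfc1 were added after their values were seen. Of other lists the 3 largest called genes are named, except that some are not reported here. Members, lists and tests were chosen with earlier results of these data known. Gene positions are those of the files (mm10). Promoters come from RefSeq (GRCm38.p6), the first start per gene.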

Additional observations from a re-analysis of the deposited data

Results flagged for a closer look

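In 17 of 189 combinations of a gene and a group, 1 of the 5 libraries lay far from the others by Dixon's criterion on normalised counts, where chance gives about 1 in 20. In untreated Ripk3-/- cells the high library was replicate 4 for 7 genes: Ccne1 (252.88), Dnmt1 (3231.52), Mcm4 (1543.03), Orc1 (140.99), Pole (741.86), Rrm2 (1500.51) and Tk1 (491.22). In palmitate-treated Ripk3-/- cells replicate 1 was low for Mcm7 (2729.77), Pole (725.59), Rpa1 (1803.41) and Rpa2 (290.0), and replicate 5 was high for Chaf1b (773.99). In palmitate-treated WT cells replicate 1 was high for Mcm3 (2438.96), Rpa2 (392.35) and Tk1 (763.73). In untreated WT cells replicate 4 was high for Pold1 (864.48) and replicate 3 low for Rfc1 (1950.3). Genes of 1 library are not independent, and no cause was tested.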

How the results depend on the processing

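No called fold change of a gene of the set changed sign under any alternative run. Estimates near 0 that were not called were not followed for their sign. The palmitate calls in WT cells stayed at 48 to 51 of 51 listed genes and at 40 to 42 of 42 over 20 libraries. For palmitate in Ripk3-/- cells, 33 of 40 genes were called, DESeq2 called 38, and leaving out single libraries gave 20 to 39. Of those 33 calls 14 were lost in at least 1 setting. For untreated Ripk3-/- against WT cells, 3 genes were called by the table. That count was 6 with DESeq2, 9 with a replicate block, 10 when adjusted over listed genes only, 10 by the authors' deposited adjusted p, 6 with both untreated libraries numbered 4 left out (chosen after seeing the data), and 2 to 6 without single libraries. It was 5 without Ripk3-/- replicate 1, 6 without Ripk3-/- replicate 3 and 6 without WT replicate 4. Over 20 libraries it was 19, and 9 to 31 without single libraries, named in the report. With palmitate the genotype count over 20 libraries was 5, and 2 to 6 without single libraries. All were higher, except that Dnmt1 was called lower in Ripk3-/- cells with TMM (-0.12, with 3 genes higher), without untreated Ripk3-/- replicate 4 (-0.09, with 5 higher) and without both untreated libraries numbered 4 (-0.09, with 6 higher). The count was 2 without Ripk3-/- replicate 2, Ripk3-/- replicate 5 or WT replicate 3, and 3 without WT replicate 2. The interaction called 0 genes in every setting. The cause of these shifts was not tested.

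Same-numbered libraries correlated at -0.247 to 0.286 in their deviations from the group means, and not all pairs exceeded 0.1 in any comparison, so the numbers were not taken as pairs. Not every library correlated best with its own number. With the replicate block 35 genes were called for palmitate in Ripk3-/- cells, 51 for palmitate in WT cells, 4 for genotype with palmitate and 9 without, and over 20 libraries 41, 42, 5 and 25 for the same comparisons. Other scalings moved the median log2 fold change of all genes by at most 0.085. The split of called genes into higher and lower moved with the scaling as given in the report, and over 20 libraries the DESeq2 size factors gave 43.8% higher in Ripk3-/- cells, against 58.2%, and 44.3% in WT cells, against 59.3%. The least covered gene of the set, Pif1, held 278 reads over the 5 untreated WT libraries, and its palmitate log2 fold change in Ripk3-/- cells had the widest SE of the set (0.20).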

Other observations

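Between genotypes, genes outside the set also differed, in the per-table fits. Of all genes tested 7.08% were called higher in untreated Ripk3-/- cells and 12.1% with palmitate. Whether any list below departs from these shares was not tested. In untreated cells 3 of 29 G1/S control genes were called higher in Ripk3-/- than in WT cells: Ccnd2, cyclin D2 (0.40, SE 0.08), Cdk6, a cyclin D kinase (0.37, SE 0.08), and Ccnd1, cyclin D1 (0.33, SE 0.07), and 2 were called lower. With palmitate 5 were higher and 2 lower, with Cdk6 at 0.40 (SE 0.04), Ccnd2 at 0.23 (SE 0.05) and the repressor E2f6 at -0.19 (SE 0.05). Among 33 nucleotide synthesis genes 6 were higher and 1 lower in untreated Ripk3-/- cells, and 12 higher and 1 lower with palmitate, the 12 including the gene that the files name Ppat. The lower one was Adssl1, an adenylosuccinate synthase (-0.44, SE 0.10 untreated and -0.34, SE 0.07 with palmitate). Samhd1, a dNTP hydrolase, was higher (0.18, SE 0.05 untreated and 0.19, SE 0.04 with palmitate), as were Shmt1 untreated (0.23, SE 0.07) and the nucleoside diphosphate kinase Nme1 with palmitate (0.52, SE 0.07). Of 30 further replication genes 0 were listed in untreated cells, and with palmitate 4 were higher and 2 lower, the largest being Wdhd1 (-0.25, SE 0.08), Rnaseh2c (0.22, SE 0.05) and Dna2 (0.21, SE 0.06). Of 30 mitotic genes 1 was higher in untreated Ripk3-/- cells (Cenpf, 0.42, SE 0.12), and with palmitate 1 was higher (Cenpf, 0.17, SE 0.05) and 3 lower, among them Kif20a (-0.19, SE 0.05) and Kif23 (-0.17, SE 0.04). Of 32 checkpoint and repair genes Bard1 alone was called, with palmitate (0.36, SE 0.12). The edgeR adjusted p of these named genes was at most 0.0351.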
